A study of Homo sapiens with 16 samples.

Results

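The SP and KLF zinc finger transcription factors SP1, SP2, SP3, SP4, KLF3, KLF4, KLF5, KLF6, KLF10 and KLF13, were followed as a group of 10 genes in prostate cancer spheroids with and without knockdown of MED12. These 10 of the 62703 genes in the count table were picked by name with their levels and their responses to the knockdown already known, SP2 because it was lower after the knockdown in each line. All 10 were among the 10566 genes that passed the expression filter. Their responses to the knockdown are therefore given as a description, by levels, fold changes and counts of members past a threshold, with no p-value and nothing read from the counts. P-values are given for the differences between control spheroids of the lines, which did not set the list. The control levels were nevertheless known when the members were picked, so these p-values are not fully independent of that choice.

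The study asked what MED12, which belongs to the Mediator kinase module, does in prostate cancer cells. Spheroids of 3 established cell lines were sequenced 7 days after transfection with 25 pmol of a small interfering RNA (siRNA) pool against MED12 (siMED12) or of a nontargeting pool (siCtrl), of which the cells spent 3 days in 2D culture and 4 days as spheroids. LNCaP cells carry an active androgen receptor and depend on it, 22Rv1 cells carry it together with truncated forms and resist enzalutamide, and PC3 cells lack it. There were 3 libraries for LNCaP siCtrl, LNCaP siMED12, 22Rv1 siCtrl and PC3 siCtrl, and 2 libraries, replicates 1 and 3, for 22Rv1 siMED12 and PC3 siMED12. Each line is a single established line, and 1 siRNA pool was used against MED12, so that a response to the loss of MED12 and a response to another target of the pool cannot be told apart. The sequences of the siRNAs were not used here, and no match between them and any gene below was searched.

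SP and KLF proteins share 3 C-terminal zinc fingers that bind GC boxes and the related CACCC boxes, which lie in the promoters of many housekeeping and cell cycle genes. SP1, SP3 and SP4 carry glutamine-rich activation domains and bind the same GC boxes, whereas SP2 is known to be recruited to promoters with CCAAT boxes together with the trimeric factor NF-Y. The KLF proteins differ more among themselves: KLF4 and KLF5 regulate epithelial growth and differentiation, KLF6 is known as a tumour suppressor in the prostate, KLF10 is induced by transforming growth factor beta, and KLF3 and KLF13 recruit corepressors.

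The promoter windows of 4 members are shown as background, and no expression result below rests on them. Of these members, SP2 was lower after siMED12 in each line, and SP1 is the family member to which SP2 is most often compared. KLF4 and KLF5 had the largest log2 differences of the members between 22Rv1 and LNCaP siCtrl. Each window runs from 250 bases before to 50 bases after a transcription start in RefSeq (GRCh38.p14), written 5′ to 3′ on the strand of the gene. Capitals mark matches on either strand to the GC box GGGCGG and to the CCAAT box. The windows lie at chr17:47895986-47896285 on the plus strand for SP2, chr12:53379926-53380225 on the plus strand for SP1, chr9:107489720-107490019 on the minus strand for KLF4 and chr13:73058755-73059054 on the plus strand for KLF5.
SP2: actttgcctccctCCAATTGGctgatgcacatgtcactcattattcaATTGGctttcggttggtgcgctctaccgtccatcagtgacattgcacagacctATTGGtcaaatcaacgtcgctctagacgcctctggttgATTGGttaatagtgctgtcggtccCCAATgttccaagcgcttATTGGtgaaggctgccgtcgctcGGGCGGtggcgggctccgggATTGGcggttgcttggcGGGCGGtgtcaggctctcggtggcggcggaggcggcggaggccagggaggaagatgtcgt
SP1: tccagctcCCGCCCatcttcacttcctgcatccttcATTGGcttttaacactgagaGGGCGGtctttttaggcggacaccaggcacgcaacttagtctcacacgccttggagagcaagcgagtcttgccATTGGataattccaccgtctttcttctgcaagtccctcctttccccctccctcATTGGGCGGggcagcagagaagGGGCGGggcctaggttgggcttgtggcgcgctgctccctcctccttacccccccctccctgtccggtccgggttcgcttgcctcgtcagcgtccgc
KLF4: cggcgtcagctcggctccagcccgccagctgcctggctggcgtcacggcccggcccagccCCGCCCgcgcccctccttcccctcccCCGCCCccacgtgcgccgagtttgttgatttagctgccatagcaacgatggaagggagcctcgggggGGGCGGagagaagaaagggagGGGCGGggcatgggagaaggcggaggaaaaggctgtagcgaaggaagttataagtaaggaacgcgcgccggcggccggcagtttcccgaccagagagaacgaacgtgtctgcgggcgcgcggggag
KLF5: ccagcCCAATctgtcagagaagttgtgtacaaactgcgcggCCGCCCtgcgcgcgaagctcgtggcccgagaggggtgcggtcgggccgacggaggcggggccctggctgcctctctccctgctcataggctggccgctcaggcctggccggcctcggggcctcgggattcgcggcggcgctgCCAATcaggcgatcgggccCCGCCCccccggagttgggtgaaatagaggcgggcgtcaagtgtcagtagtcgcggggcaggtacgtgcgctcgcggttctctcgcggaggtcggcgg

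Of the 10 members, 8 had a promoter window in the RefSeq table, and KLF3 and KLF10 did not. The SP2 window held 8 matches to CCAAT, which form 7 separate stretches because a pair of them overlaps as CCAATTGG, and only 2 of the 35116 promoter windows of the table (0.0057%) held as many. CCAAT was searched after the SP2 window had been seen. For comparison, 34.6% of all windows held at least 1 CCAAT, with a mean of 0.501 a window. The SP1 window held 3 CCAAT matches, a number reached by 3.26% of windows, the windows of KLF5, KLF6 and KLF13 held 2, those of SP3 and SP4 held 1, and that of KLF4 held none. GC boxes were found in each of the 8 windows, from 2 in SP2, SP3, KLF5 and KLF6 and 3 in KLF13 to 4 in SP1, SP4 and KLF4, against 45% of all windows with at least 1 and a mean of 1.08. The shorter CACCC, which 59.9% of windows held, occurred 3 times in SP4, 2 times in SP3 and KLF5, 1 time in KLF13 and not in the other windows. A GC box of SP1 shares bases with a CCAAT match, as ATTGGGCGG. These are matches of letters and not measured binding sites.

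**Figure D1:**
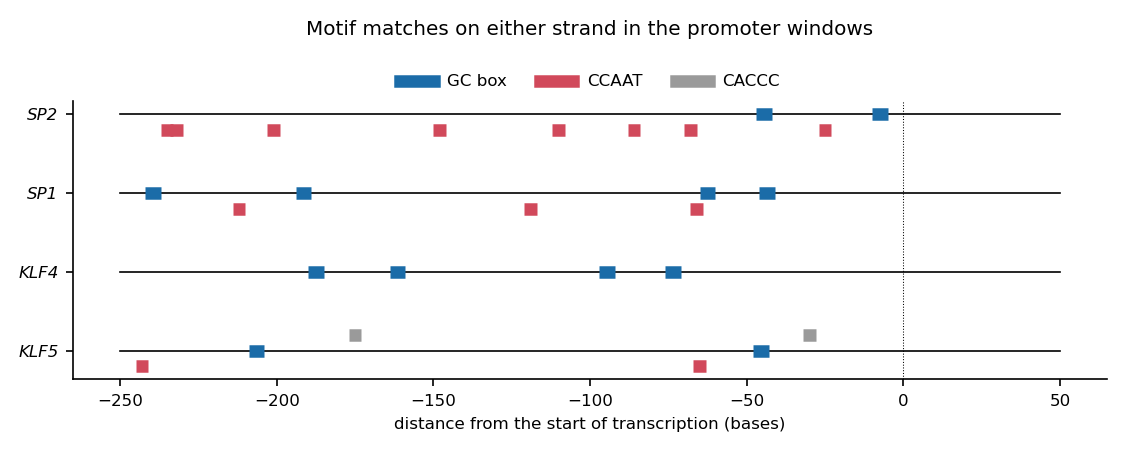
Positions of GC box, CCAAT and CACCC matches on either strand in the promoter windows of SP2, SP1, KLF4 and KLF5, in bases from the transcription start at 0 (dotted line). The 8 CCAAT matches of SP2 all lie before the start, whereas KLF4 has 4 GC boxes and no CCAAT.

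Totals ran from 479118 to 993807 counts a library with a median of 764494, so that 3 counts, the upper limit that a count of 0 allows, correspond to 3.15 to 6.22 CPM. CPM are counts scaled to a common library total after TMM normalization, and their levels were compared for 1 gene between libraries. Between genes they served only to choose which genes of a list to name. The line labels mostly matched the markers. KLK3, which encodes prostate-specific antigen, averaged 2473 CPM in LNCaP siCtrl, 28.9 in 22Rv1 siCtrl and 13.8 in PC3 siCtrl. CAV1 averaged 533 CPM in PC3 siCtrl, 14.8 in 22Rv1 siCtrl and 2.80 in LNCaP siCtrl. All 5 PC3 markers passed as higher in PC3 siCtrl than in each other line. Of 5 markers of LNCaP and 22Rv1, all 5 passed as lower in PC3 than in LNCaP, but only 3 as lower than in 22Rv1. TMPRSS2, among these 5, averaged 15.6 CPM in 22Rv1 siCtrl and 19.2 in PC3 siCtrl. A pair of libraries stood apart most by transcripts of another line. The 24 genes restricted to PC3 reached 4.66% of their PC3 level in 22Rv1 siMED12 replicate 3, against at most 0.675% in the other 22Rv1 libraries. The 7 genes restricted to LNCaP reached 2.51% of their LNCaP level in PC3 siMED12 replicate 3, against at most 0.632%. Restricted genes were chosen as high in siCtrl of 1 line and nearly absent from siCtrl of the other. Low shares in siCtrl libraries therefore follow from the choice. The libraries outside it, siMED12 replicate 1, were at 0.551% in 22Rv1 and 0.319% in PC3. Smaller shares stood out in LNCaP siCtrl replicate 1, at 1.24% of the PC3 level over 22 genes, against at most 0.478% in the other LNCaP libraries. PC3 siCtrl replicate 3 was at 1.45% of the 22Rv1 level, over only 3 genes. The shares in these siCtrl libraries were not subtracted. In 22Rv1 all 5 PC3 markers (VIM, CAV1, CD44, ANXA1 and AXL) had a positive fold change after siMED12 and 1 passed the test, CAV1 (edgeR adjusted p = 0.00206), and their summed level was 89.8 to 100.3 CPM in siCtrl, and 115 and 185 CPM in replicates 1 and 3 of siMED12, with AXL at 0 counts in 2 siCtrl libraries. The part of these transcripts in the 22Rv1 results below was not tested, beyond the subtractions given there. MED12 itself was low, at 9.94, 12.9 and 11.7 CPM in LNCaP siCtrl and 6.99, 6.67 and 10.3 in LNCaP siMED12, at 23.4, 16.7 and 19.2 in 22Rv1 siCtrl and 7.42 and 8.98 in 22Rv1 siMED12, and at 28.4, 8.41 and 18.8 in PC3 siCtrl and 15.8 and 14.5 in PC3 siMED12. The MED12 libraries separated by treatment in 22Rv1, as those of 12.9% of all genes tested did in that direction, and overlapped in LNCaP and PC3. The paper, from its own measurements, calls the knockdown of MED12 in the spheroids highly efficient.

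SP2 (ENSG00000167182) was lower after siMED12 in each line, and its siMED12 libraries lay below its siCtrl libraries without overlap in LNCaP, 22Rv1 and PC3, as those of 6.75%, 12.9% and 11.9% of all genes tested did. In LNCaP it was counted at 33.1, 44.4 and 40.3 CPM in siCtrl and at 18.2, 20.02 and 25.3 CPM in siMED12. In 22Rv1 it stood at 32.5, 25.1 and 37.2 CPM in siCtrl and at 8.48 and 7.70 CPM in siMED12. In PC3 the levels were 60.6, 46.3 and 53.5 CPM in siCtrl and 31.7 and 41.5 CPM in siMED12. Thus all 7 siMED12 libraries were below the siCtrl mean of their line, the lowest being both 22Rv1 libraries, which rest on 8 and 6 counts. The group means went from 39.3 ± 5.70 to 21.2 ± 3.69 CPM in LNCaP (SD, n = 3 and 3), from 31.6 ± 6.12 to 8.09 ± 0.556 CPM in 22Rv1 (SD, n = 3 and 2) and from 53.5 ± 7.19 to 36.6 ± 6.95 CPM in PC3 (SD, n = 3 and 2).

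The log2 fold change of SP2 was -0.88 ± 0.26 (SE; 95% interval -1.41 to -0.36) in LNCaP, -1.96 ± 0.37 (-2.71 to -1.21) in 22Rv1 and -0.57 ± 0.26 (-1.11 to -0.039) in PC3. As linear values, SP2 was 1.84-fold lower in LNCaP, 3.89-fold lower in 22Rv1 and 1.49-fold lower in PC3. Among the 10566 genes tested, 25 (0.237%) lay below siCtrl without overlap in each of the 3 lines, and SP2 had the lowest mean effect of them, -1.14 ± 0.17 (SE), followed by HINFP at -0.88, a gene named after its value was seen. Without regard to overlap, SP2 ranked 36 from the lowest fold change in 22Rv1, 421 in LNCaP and 869 in PC3. These are the measures by which SP2 came to be listed, and they rank it without testing it. The log2 fold change in 22Rv1 minus that in LNCaP was -1.08 (95% interval -2.04 to -0.12), and that in PC3 minus that in 22Rv1 was 1.39 (0.43 to 2.35).

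SP2 overlaps the antisense gene SP2-AS1 over 31628 bases at its locus on chromosome 17 (47896150 to 47928957, plus strand, GRCh38), and SP2-AS1 had 0 to 2 counts a library. The strand setting of the counting is not given in the sources used here, so that reads of these genes may not be separable. Subtracting the share of counts that 22Rv1 siMED12 replicate 3 could owe to PC3 removed 2 of its 6 SP2 counts. Over the leave-one-out fits the log2 fold change of SP2 ranged from -1.04 to -0.78 in LNCaP, from -2.08 to -1.83 in 22Rv1 and from -0.74 to -0.36 in PC3, where leaving out siMED12 replicate 1 gave the value nearest to 0.

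**Figure D2:**
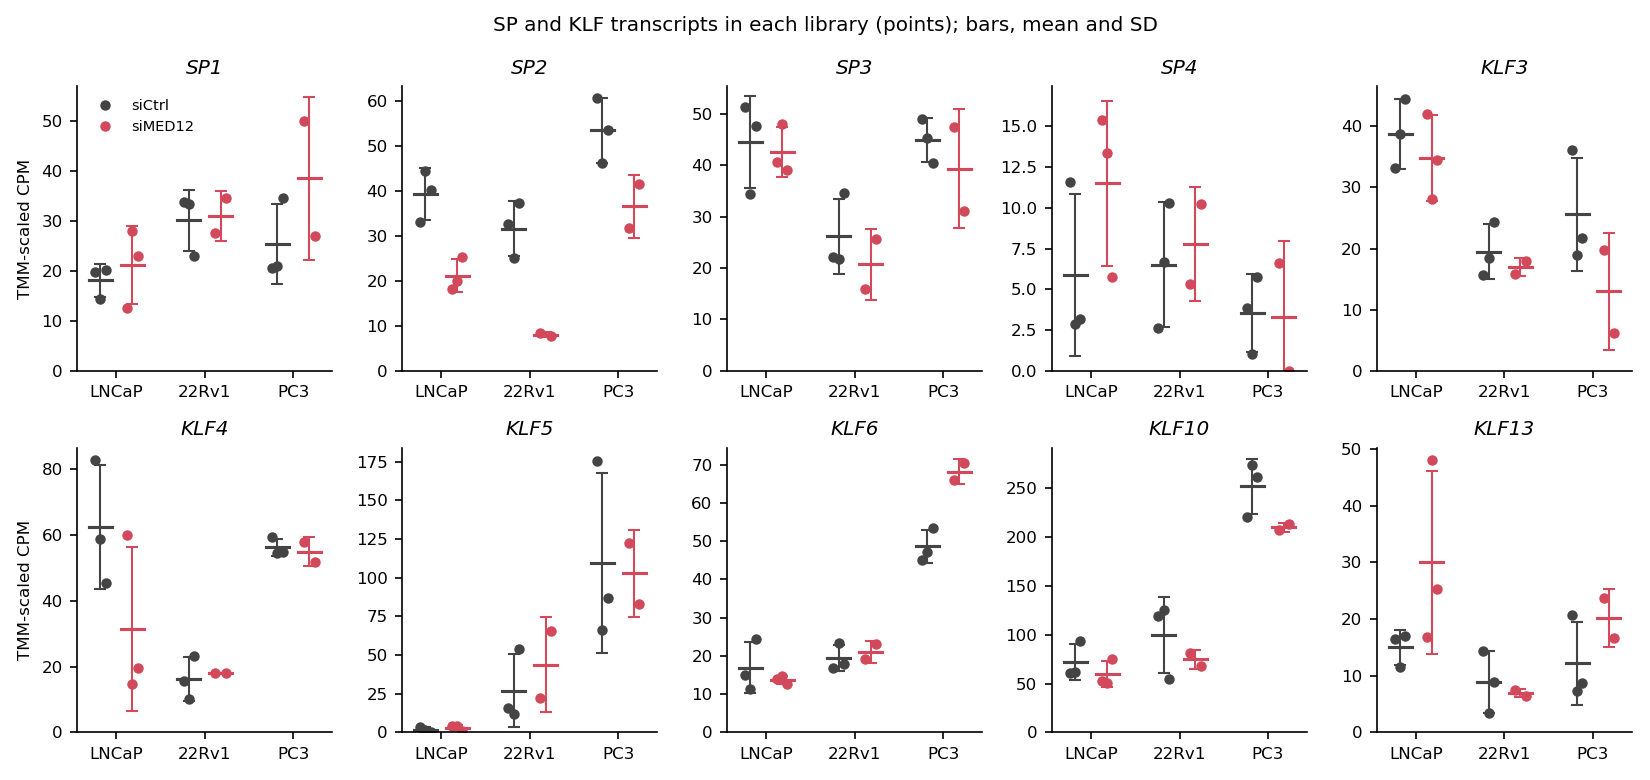
TMM-scaled CPM of the 10 members in each of the 16 libraries (points), by line and treatment, with the mean and SD of each group (bars, cut at 0). SP2 is the member whose siMED12 points lie under its siCtrl points in all 3 lines, and KLF5 the one nearly absent from LNCaP.

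SP1, SP3 and SP4 did not separate by treatment in any line. SP1 was counted at 19.9, 14.3 and 20.1 CPM in LNCaP siCtrl and 12.6, 28.0 and 23.0 in LNCaP siMED12, at 33.8, 33.4 and 23.1 in 22Rv1 siCtrl and 27.6 and 34.6 in 22Rv1 siMED12, and at 20.6, 21.0 and 34.7 in PC3 siCtrl and 50.1 and 27.0 in PC3 siMED12. Its groups overlapped in each line, and 5 of its 7 siMED12 libraries were above the siCtrl mean, with log2 fold changes of 0.23 ± 0.35, 0.05 ± 0.32 and 0.70 ± 0.33 (SE) in LNCaP, 22Rv1 and PC3. The value in PC3 rests on siMED12 replicate 1, being 0.11 without it and up to 1.01 with another library left out. SP3, which competes with SP1 for GC boxes, changed by -0.07 ± 0.23, -0.38 ± 0.33 and -0.14 ± 0.28 (SE), with overlapping groups between 15.9 and 51.4 CPM, and its sign turned with 1 library left out in LNCaP (up to 0.04) and in PC3 (up to 0.08). SP4, best known from neurons, had 0 to 11 counts a library, a depth at which its log2 fold changes of 1.04 ± 0.60, 0.21 ± 0.68 and 0.26 ± 0.98 (SE) do not resolve a difference. In PC3 its mean level was lower in siMED12, at 3.30 CPM from 5 counts against 3.57 CPM from 8 counts, although the fitted value is positive, and that value ran from -4.40 to 0.96 with 1 library left out.

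KLF4, a factor of epithelial differentiation and of reprogramming to pluripotency, was lower after siMED12 in LNCaP, in 3 of 3 libraries against the siCtrl library of the same replicate number, but with overlapping groups. It stood at 82.8, 58.7 and 45.6 CPM in LNCaP siCtrl and at 60.1, 14.7 and 19.5 CPM in LNCaP siMED12. Replicate 1 of siMED12 lay within the siCtrl range and replicates 2 and 3 well below it. The log2 fold change was -0.98 ± 0.31 (SE; 95% interval -1.61 to -0.35), and ran from -1.79 without siMED12 replicate 1 to -0.65 with another library left out. KLF4 did not pass the threshold of an adjusted p of 0.05 in LNCaP, but passed it with a term for the paired replicate numbers, at a log2 fold change of -1.05, and without siMED12 replicate 1. These outcomes only describe a member picked with this response known, and are no evidence apart from that choice. In 22Rv1 it was 15.6, 10.0 and 23.1 CPM in siCtrl and 18.0 and 18.0 in siMED12, and in PC3 59.3, 54.7 and 54.9 CPM in siCtrl and 58.0 and 51.8 in siMED12, so that the groups overlapped and the log2 fold changes were 0.10 ± 0.49 and -0.02 ± 0.33 (SE).

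KLF13, first known as a factor of T cells, went the other way in LNCaP. Its level was 16.6, 11.5 and 17.0 CPM in siCtrl and 16.8, 48.0 and 25.3 CPM in siMED12, a log2 fold change of 0.98 ± 0.38 (SE; 95% interval 0.21 to 1.75). The groups touched, since siMED12 replicate 1 was within the siCtrl range, and the highest level was in replicate 2, the library in which KLF4 was lowest. In 22Rv1 KLF13 changed by -0.41 ± 0.64 and in PC3 by 0.79 ± 0.50 (SE), from group totals of 12 to 29 counts.

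KLF6 was higher in PC3 after siMED12, where its libraries separated: 45.2, 47.3 and 53.5 CPM in siCtrl and 65.9 and 70.5 CPM in siMED12. The log2 fold change was 0.48 ± 0.23 (SE; 95% interval 0.012 to 0.96), against -0.36 ± 0.34 in LNCaP and 0.13 ± 0.33 in 22Rv1, where the groups overlapped. In PC3 8.8% of all genes tested lay above siCtrl without overlap. KLF10 was slightly lower in each line, by -0.30 ± 0.25, -0.39 ± 0.25 and -0.27 ± 0.21 (SE) on the log2 scale in LNCaP, 22Rv1 and PC3, and 6 of its 7 siMED12 libraries were below the siCtrl mean of their line. Its libraries separated in PC3 alone, at 221, 274 and 262 CPM in siCtrl and 207 and 214 CPM in siMED12, as those of 11.9% of all genes did in that direction. KLF3, which recruits the corepressor CTBP, also had a negative fold change in each line, of -0.18 ± 0.26, -0.21 ± 0.39 and -0.81 ± 0.41 (SE). The PC3 value of KLF3 came from 19.8 and 6.22 CPM in siMED12 against 36.1, 18.9 and 21.7 in siCtrl, which overlap, and was -0.35 without siMED12 replicate 3 and -2.00 without siMED12 replicate 1.

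KLF5 differed between libraries of 1 group more than between treatments. In 22Rv1 it was 15.6, 11.7 and 53.9 CPM in siCtrl and 22.3 and 65.4 CPM in siMED12. Replicate 3 was the highest of either group, so that the log2 fold change of 0.58 ± 0.47 (SE) is within the spread of the replicates. KLF10 showed the opposite in the same line, with 119.7, 125 and 55.2 CPM in siCtrl and 81.6 and 68.0 CPM in siMED12, replicate 3 being the lowest of either group. Removing what 22Rv1 siMED12 replicate 3 could owe to PC3 took away 3 of its 51 KLF5 counts and 8 of its 53 KLF10 counts. The siCtrl replicate 3 of 22Rv1 was not among the libraries named above for transcripts of another line. In PC3 KLF5 was 175, 66.2 and 86.7 CPM in siCtrl and 123 and 83.0 CPM in siMED12, a log2 fold change of -0.04 ± 0.34 (SE).

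**Figure D3:**
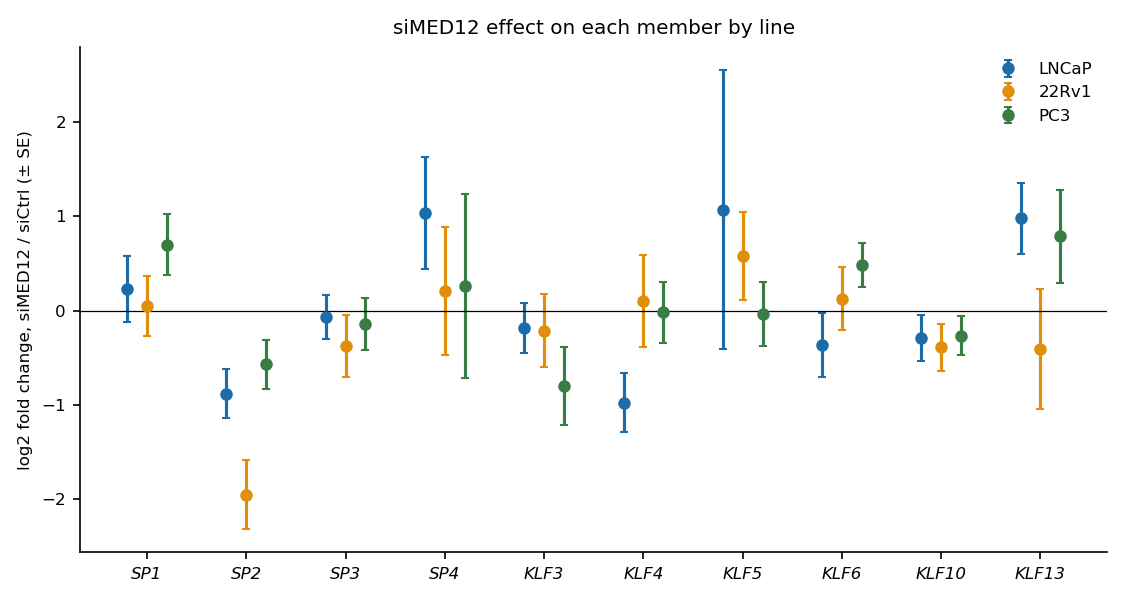
Log2 fold change of siMED12 against siCtrl for each member in LNCaP, 22Rv1 and PC3, with the SE of the fit. SP2 is below 0 in all 3 lines, as are SP3, KLF3 and KLF10, and is lowest in 22Rv1 at -1.96. SP1 and SP4 are above 0 in all 3 lines, and the other members differ in sign between lines. The SE reach 1.48 for KLF5 in LNCaP.

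As a description, 0 of the 10 members passed the edgeR threshold in LNCaP, where 0.416% of all genes did, 1 of 10 in 22Rv1, where 1.84% did, and 0 of 10 in PC3, where 0% did. The 1 member is SP2, which was listed for its fall in these same libraries, so that the call is no evidence apart from that choice. At an unadjusted p under 0.05 there were 3 members in LNCaP (SP2, KLF4 and KLF13), where 7.34% of all genes were, 1 in 22Rv1 (SP2), where 11.7% were, and 3 in PC3 (SP1, SP2 and KLF6), where 4.99% were. Like the call of SP2, these counts and those below only describe members picked with these responses known. DESeq2 and limma made the same counts of calls among the members. SP2, SP3, KLF3 and KLF10 had negative fitted fold changes in each line, as 14.9% of all genes did, and SP1 and SP4 positive ones, as 11.3% of all genes did, and the signs of SP1, SP3 and SP4 turned in some lines with 1 library left out. None of the members passed in a difference between lines of the siMED12 effect, by edgeR, DESeq2 or limma, where 0.189% of all genes did for 22Rv1 minus LNCaP, 0.0284% for PC3 minus LNCaP and 0.0946% for PC3 minus 22Rv1. At an unadjusted p under 0.05 these were SP2 in both differences with 22Rv1, where 8.28% (minus LNCaP) and 9.16% (PC3 minus 22Rv1) of all genes were, and KLF4 and KLF6 in that of PC3 with LNCaP, where 5.02% were.

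Between the control spheroids KLF5 had the largest log2 difference of the 10 members in each of the 3 comparisons. KLF5 had 2, 1 and 0 counts in the LNCaP siCtrl libraries, 12, 7 and 42 in 22Rv1 and 136, 63 and 60 in PC3, and so rose in steps from LNCaP to 22Rv1 to PC3 without overlap. The share of all genes tested without overlap between siCtrl groups is not given here. Non-overlap between lines, here and below, is therefore only a description. From the counts, the ratio of 22Rv1 to LNCaP was 21.3 with a counting interval of 6.94 to 106, and that of PC3 to LNCaP was 80.2 with an interval of 27.1 to 391, since LNCaP held 3 counts in all. In the edgeR fit the log2 differences were 4.24 ± 0.91 (SE, adjusted p = 0.000253) for 22Rv1 against LNCaP, 6.17 ± 0.66 (adjusted p = 1.01e-09) for PC3 against LNCaP and 1.93 ± 0.37 (adjusted p = 3.75e-05) for PC3 against 22Rv1. With 1 library left out these differences ran from 3.24 (without 22Rv1 siCtrl replicate 3, which holds 42 of the 61 counts of its group) to 5.22 (without LNCaP siCtrl replicate 1), from 5.42 to 7.14 and from 1.38 to 2.90, and each passed the threshold throughout. LNCaP siMED12 libraries were as low, with 3, 3 and 1 counts. The part of PC3 transcripts in the 2 counts of LNCaP siCtrl replicate 1 was not tested.

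KLF6 and KLF10 were both highest in PC3. KLF10 averaged 72.1 ± 18.4 CPM in LNCaP siCtrl, 100.1 ± 39.0 in 22Rv1 and 252 ± 28.1 in PC3 (SD, n = 3 each), and every PC3 library, at 221 CPM or more, was above every library of the other lines, which reached 125 CPM. The PC3 level was 3.42-fold that of LNCaP (log2 1.77 ± 0.20 SE, edgeR adjusted p = 8.28e-09) and 2.56-fold that of 22Rv1 (log2 1.35 ± 0.20, adjusted p = 6.88e-07). KLF6 averaged 16.9 ± 6.69, 19.4 ± 3.48 and 48.6 ± 4.31 CPM in LNCaP, 22Rv1 and PC3, with the PC3 libraries again above all others. It was 2.72-fold higher in PC3 than in LNCaP (log2 1.44 ± 0.26 SE, edgeR adjusted p = 1.98e-05) and 2.52-fold higher than in 22Rv1 (log2 1.33 ± 0.26, adjusted p = 5.74e-05). Neither passed the test between LNCaP and 22Rv1, where KLF6 differed by 0.11 ± 0.32 and KLF10 by 0.42 ± 0.23 (SE, adjusted p = 0.145).

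KLF4 had its low level in 22Rv1, with 16.2 ± 6.56 CPM against 62.4 ± 18.9 in LNCaP and 56.3 ± 2.63 in PC3 (SD, n = 3 each). The 22Rv1 libraries reached 23.1 CPM and those of the other lines began at 45.6 CPM. KLF4 was 3.59-fold lower in 22Rv1 than in LNCaP (log2 -1.85 ± 0.36 SE, edgeR adjusted p = 9.06e-05) and 3.34-fold higher in PC3 than in 22Rv1 (log2 1.74 ± 0.36, adjusted p = 0.000122), and LNCaP and PC3 differed by -0.10 ± 0.28, within the spread of the libraries. KLF3 was highest in LNCaP, with 38.8 ± 5.69 CPM against 19.5 ± 4.48 in 22Rv1 and 25.6 ± 9.24 in PC3. The difference passed the test for 22Rv1 (log2 -1.01 ± 0.30 SE, edgeR adjusted p = 0.00746) and not for PC3 (-0.64 ± 0.28, adjusted p = 0.053), where PC3 replicate 1 at 36.1 CPM overlapped LNCaP. KLF13, at 14.99 ± 3.07, 8.88 ± 5.49 and 12.2 ± 7.32 CPM in LNCaP, 22Rv1 and PC3, passed in none of the 3 comparisons, and its libraries overlapped.

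Of the SP genes, SP2 and SP3 passed the test in at least 1 comparison of lines, and SP1 and SP4 did not. SP3 was lowest in 22Rv1, at 26.2 ± 7.35 CPM against 44.5 ± 8.94 in LNCaP and 44.9 ± 4.29 in PC3 (SD, n = 3 each). It was 1.67-fold lower in 22Rv1 than in LNCaP (log2 -0.74 ± 0.26 SE, edgeR adjusted p = 0.0216), although the highest 22Rv1 library (34.6 CPM) was above the lowest LNCaP library (34.4 CPM), and this call was lost with DESeq2. SP3 was 1.69-fold higher in PC3 than in 22Rv1 (log2 0.76 ± 0.26 SE, edgeR adjusted p = 0.0132), without overlap, but not past the threshold without 22Rv1 siCtrl replicate 1 (adjusted p = 0.0711 in edgeR) or replicate 2. SP2 was also highest in PC3, 1.65-fold above 22Rv1 (log2 0.72 ± 0.23, edgeR adjusted p = 0.00742), and its differences from LNCaP did not pass, at -0.30 ± 0.24 for 22Rv1 and 0.42 ± 0.22 for PC3. SP1 was lowest in LNCaP, where every library was below those of 22Rv1 and PC3, though narrowly for PC3. The LNCaP libraries reached 20.1 CPM and those of PC3 began at 20.6 CPM. The differences of 0.71 ± 0.33 for 22Rv1 and 0.45 ± 0.33 for PC3 (SE) did not pass (adjusted p of 0.0831 and 0.265 in edgeR). SP4 had 8 to 14 counts in all in each siCtrl group and differed in none of the comparisons beyond its spread.

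**Figure D4:**
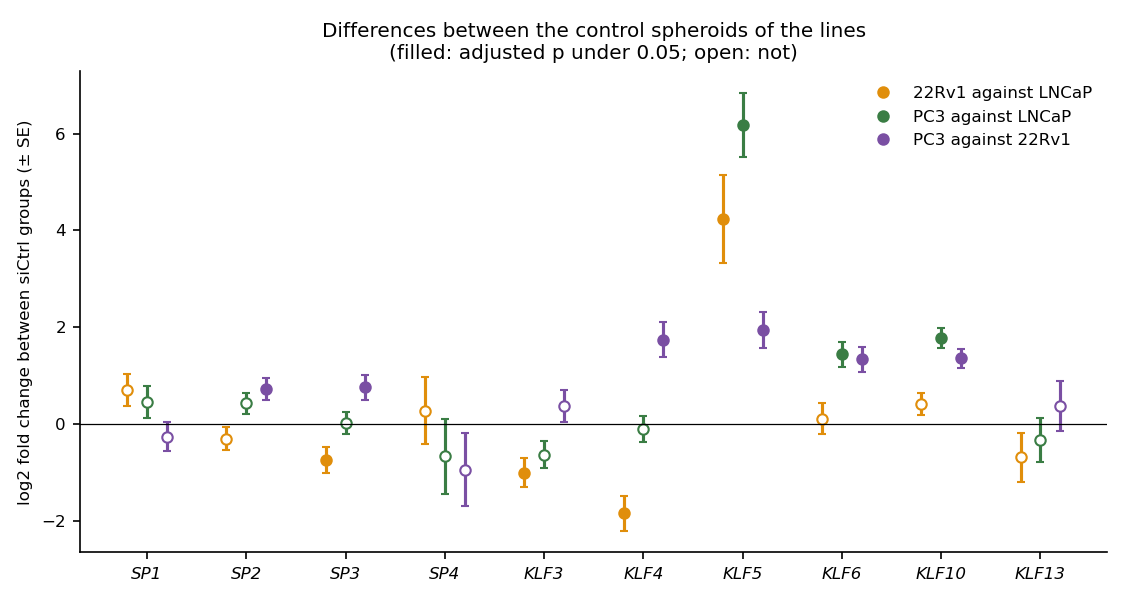
Log2 differences of each member between siCtrl spheroids of the lines, with SE; filled points have an edgeR adjusted p under 0.05 over the 10566 genes. KLF5 stands highest, at 4.24 and 6.17 against LNCaP, and KLF4 lowest, at -1.85 for 22Rv1 against LNCaP.

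In counts, 4 of the 10 members passed between 22Rv1 and LNCaP (KLF5 higher, SP3, KLF3 and KLF4 lower in 22Rv1), 3 between PC3 and LNCaP (KLF5, KLF6 and KLF10, all higher in PC3) and 6 between PC3 and 22Rv1 (SP2, SP3, KLF4, KLF5, KLF6 and KLF10, all higher in PC3). These counts stand beside 43.2%, 54.7% and 54.9% of all genes tested that passed in the same comparisons, so that the share of members called was near or below that of the background. By direction, 6 of 10 members were higher in PC3 than in 22Rv1, where 28.7% of all genes were higher, and 0 were lower, where 26.1% were lower. None was lower in PC3 than in LNCaP by edgeR, DESeq2 or limma, against 25.5% of all genes. At an unadjusted p under 0.05, KLF3 was, as were 27.9% of all genes. The comparisons share their siCtrl groups and are not independent of each other.

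Of 17 other SP and KLF genes, 6 passed the expression filter, SP8, KLF2, KLF9, KLF11, KLF15 and KLF16, and none of them passed the test after siMED12 in any line by edgeR, DESeq2 or limma. At an unadjusted p under 0.05 there were 2 in LNCaP, SP8 and KLF11, against 7.34% of all genes, and 0 in 22Rv1 and PC3. SP8 had 0 to 1 counts a library in LNCaP siCtrl and 2 to 5 in LNCaP siMED12, which separate, as 5.89% of all genes did in that direction. KLF16, named for the highest mean CPM of the list, had log2 fold changes of -0.0013 ± 0.21, 0.06 ± 0.22 and -0.28 ± 0.27 (SE) in LNCaP, 22Rv1 and PC3. KLF11, a close relative of KLF10, changed by -0.74 ± 0.31, -0.44 ± 0.34 and 0.11 ± 0.41 (SE). The median log2 fold change of the 6 genes was 0.05, -0.35 and -0.28 in the 3 lines, and that of the 10 members -0.13, -0.08 and -0.03, against -0.0038, 0.0061 and -0.038 for all genes tested.

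Among 17 genes for partners and regulators, which include the NF-Y subunits, the corepressors CTBP1, CTBP2, SIN3A and SIN3B, the acetyltransferases EP300 and CREBBP and the ubiquitin ligases WWP1 and FBXW7 that act on KLF5, 16 were tested and none passed after siMED12 in any line by edgeR, DESeq2 or limma. At an unadjusted p under 0.05 there were 0 in LNCaP, 2 in 22Rv1 and 3 in PC3, against 7.34%, 11.7% and 4.99% of all genes. The deacetylase HDAC2 and CTBP1, named for the highest mean CPM, had fold changes between -0.18 and 0.04 on the log2 scale. NFYA, which encodes a subunit of the CCAAT-binding factor and is named after its value was seen, had the lowest fold change of the list in 22Rv1, where it stood at 23.4, 21.7 and 20.5 CPM in siCtrl and at 5.30 and 8.98 CPM in siMED12. The libraries did not overlap, as those of 12.9% of all genes did not in that direction in 22Rv1. The log2 fold change of -1.63 ± 0.46 (SE) missed the threshold (edgeR adjusted p = 0.0639). NFYA changed by 0.17 ± 0.39 in LNCaP and -0.09 ± 0.34 in PC3. The medians of the 16 genes were 0.10, -0.12 and 0.11 in LNCaP, 22Rv1 and PC3.

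Of 11 other zinc finger factors that bind GC-rich sites, 7 were tested and none passed after siMED12 by edgeR, DESeq2 or limma, with 0, 1 and 1 at an unadjusted p under 0.05 in LNCaP, 22Rv1 and PC3, against the same shares of all genes. MAZ, which had the highest mean CPM, had log2 fold changes of -0.0041 ± 0.12, -0.30 ± 0.13 and 0.07 ± 0.15 (SE), and ZBTB7B by -0.30 ± 0.23, -0.09 ± 0.28 and -0.36 ± 0.43.

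Genes long known to have GC boxes in their promoters and to respond to SP factors, such as TYMS, TK1, ODC1, CCND1, VEGFA and FASN, had mostly negative fold changes in 22Rv1 spheroids after siMED12, none of which passed the test. In 22Rv1 11 of the 12 tested genes (of 13 listed) had a negative fold change, with a median of -0.36, where 48.7% of all genes were negative with a median of 0.0061. None passed by edgeR, DESeq2 or limma, 5 of the 12 did at an unadjusted p under 0.05, as 11.7% of all genes did, and FASN, the fatty acid synthase, came closest (-0.71 ± 0.20 SE, adjusted p = 0.0506). In LNCaP 6 of the 12 were negative with a median of 0.02, and in PC3 6 of 12 with a median of -0.01. ODC1, the rate-limiting enzyme of polyamine synthesis, was 1773, 2029 and 1964 CPM in LNCaP siCtrl and 1646, 897 and 1327 CPM in LNCaP siMED12. The libraries separated, as those of 6.75% of all genes did in that direction in LNCaP. Its log2 fold change of -0.58 ± 0.14 (SE) missed the threshold (edgeR adjusted p = 0.0688). CCND1, which encodes cyclin D1, was likewise separated in LNCaP, at 371, 354 and 413 CPM in siCtrl against 271, 231 and 302 CPM in siMED12 (-0.50 ± 0.13, edgeR adjusted p = 0.0866). With the term for the paired replicate numbers ODC1 and CCND1 passed in LNCaP (edgeR adjusted p of 0.00121 and 0.0126). Many of these genes also follow proliferation, and the part of SP factors in their levels was not tested.

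**Figure D5:**
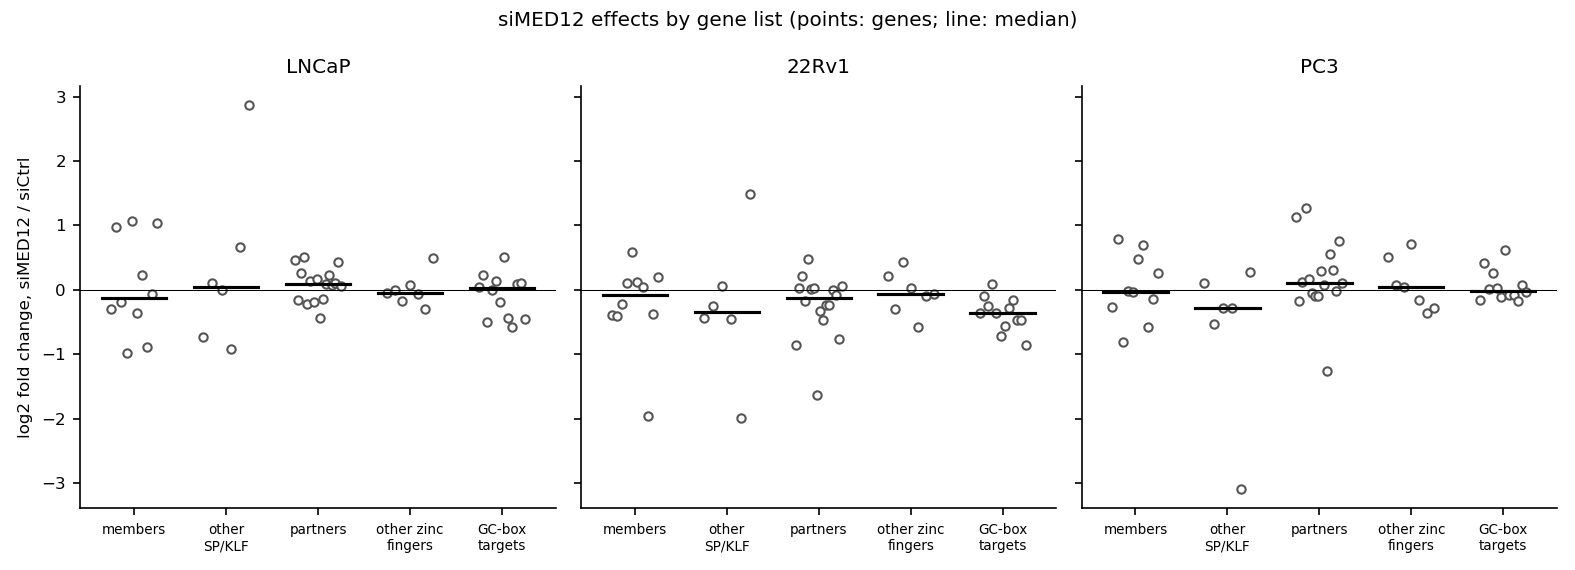
Log2 fold change of siMED12 against siCtrl of each tested gene in the 10 members and the 4 other lists, by line, with the median of each list (line). In 22Rv1 the medians of the 5 lists lie between -0.36 and -0.05, and the GC-box targets lie below 0 for 11 of 12 genes.

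The genes whose pattern over the 16 libraries was most like that of SP2 were sought among the 6719 genes that averaged 20 CPM or more, by the root mean square difference of log2(CPM + 1), each library being taken relative to the siCtrl mean of its line. Among the 5 closest were DBP, a circadian transcription factor, at 0.37, the mitophagy receptor gene BNIP3L at 0.41, the phosphatase gene DUSP1 at 0.45 and MYC at 0.45. The median gene was at 0.83, and a profile with no change in any library at 0.79. These 4 had a negative fold change in each line, of -0.78, -1.71 and -0.04 for DBP and -0.65, -0.88 and -0.17 for MYC in LNCaP, 22Rv1 and PC3. That direction largely follows from the choice of genes nearest to SP2, which was itself lower in each line. In PC3 the 4 genes lay between -0.25 and -0.04, against -0.57 for SP2. No SP or KLF gene was among the 5 closest.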

How the data were processed

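RNA of 16 spheroid libraries was measured by BRB-seq, which barcodes samples early and reads transcript 3′ ends. Reads were aligned and counted by the authors with STARsolo, with Gencode annotation, on GRCh38.p13; the collapse of molecular identifiers and the strand setting are not given in the sources used here. The deposited count table holds raw counts, and the deposited expression table holds log2 CPM made by the authors with edgeR. Recomputing it from the counts gave the same 10566 genes and values. Samples were grouped by their labels into 6 groups, and the study's methods speak of biological replicates in general, while the labels do not say whether these libraries came from separate cultures, so p-values measure the spread between libraries, which may be technical.

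Counts were analysed in R 4.3.3. A single edgeR 4.0.16 model held a mean for each of the 6 groups and used the 2-sided quasi-likelihood test after the edgeR expression filter (minimum count 10, minimum total 15), with TMM scaling and Benjamini-Hochberg adjustment over 10566 genes (threshold 0.05). The SE is the log2 fold change divided by the square root of F. Intervals are at 95%, and counting intervals and floors (3 counts) cover counting error only. Alternatives were DESeq2 1.42.0, limma 3.58.1 with trend, RLE scaling, other filters, a replicate block, subtraction of carried-over counts, separate fits, each library left out and, added after seeing the data, the legacy edgeR test. The scripts were tested on simulated data.

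The members and lists were chosen with earlier results of these data known. All members were named; of other lists, genes past the threshold in a siMED12 contrast or, failing that, the 2 with the highest mean CPM, and the 5 genes most like SP2, of which 1 is not reported here. In LNCaP, deviations of same-numbered libraries from their group means correlated at 0.132 to 0.177 across genes in 3 of 3 pairs. In 22Rv1 they correlated at 0.190 and 0.253, and in PC3 at 0.117 and 0.0787. With 2 pairs each, whose siMED12 deviations mirror each other, libraries of 22Rv1 and PC3 may share only a number. The main fit, with its SE, intervals and p-values, took no account of pairs in any line. Only the replicate block did, using the replicate numbers as pairs in all 3 lines. Promoter windows and coordinates come from RefSeq (GRCh38.p14) and Gencode 44.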

Additional observations from a re-analysis of the deposited data

How the results depend on the processing

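The counts of calls among the members were the same under most alternatives. Requiring 10 counts in every library removed low members and left SP2 untested: the call in 22Rv1 after siMED12 went from 1 to 0, and between siCtrl groups the members higher went from 1 to 0 and lower from 3 to 1 for 22Rv1 against LNCaP, higher from 3 to 1 for PC3 against LNCaP and from 6 to 2 for PC3 against 22Rv1. With all genes of at least 1 count, 1 member (KLF4) and 2 listed genes (ODC1 and CCND1) were lower in LNCaP after siMED12, and 2 listed genes (VEGFA and FASN) in 22Rv1, against 0 in each case. With the replicate block these counts were 1 (KLF4) and 2 (ODC1 and CCND1) in LNCaP and 4 (NFYA, TYMS, TK1 and FASN) in 22Rv1, and the block changed no other call. All 7 siMED12 libraries correlated best with the siCtrl library of their number, a hint from the data only. These are not 7 separate observations, since in 22Rv1 and PC3 the deviations of the 2 siMED12 libraries mirror each other. Fitting the compared line alone made 1 listed call in 22Rv1 (FASN).

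With each library left out in turn, the members lower in LNCaP after siMED12 ranged from 0 to 1 (KLF4, without LNCaP siMED12 replicate 1), the listed genes lower from 0 to 1 in LNCaP and from 0 to 1 in 22Rv1, the members higher in 22Rv1 than in LNCaP from 1 to 3, those lower from 1 to 3, and those lower in PC3 than in LNCaP from 0 to 1 (KLF3). Without 22Rv1 siCtrl replicate 3, SP1 and KLF10 became higher in 22Rv1 than in LNCaP, and without LNCaP siCtrl replicate 3 KLF10 did, while SP3 and KLF3 were no longer lower. SP3 against LNCaP was also lost in 3 further such fits and with DESeq2 (log2 -0.73). After siMED12 the sign of 12 of the 30 fold changes of members turned with 1 library left out, none of them of SP2, KLF3 or KLF10, and that of 4 under another alternative (KLF4 in 22Rv1, and SP4, KLF4 and KLF5 in PC3); SP4 in PC3 ran from -4.40 to 0.96. Between siCtrl groups signs turned only for uncalled differences: leave-one-out values ran from -0.26 to 1.08 for SP4 and from -0.083 to 0.55 for KLF6 (22Rv1 against LNCaP), from -0.12 to 0.12 for SP3, from -1.15 to 0.12 for SP4 and from -0.36 to 0.14 for KLF4 (PC3 against LNCaP), and from -0.25 to 0.86 for KLF13 (PC3 against 22Rv1). No scaling, tool or subtraction of carried-over counts turned a sign among the called differences. The depth limits SP4, KLF13, MED12 and KLF5 in LNCaP, which had few counts a library, and with 2 siMED12 libraries in 22Rv1 and PC3 a single library can set a fold change, as for SP1 and KLF3 in PC3.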

Other observations

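A pair of members, picked out of the 10 after their values were seen, moved in opposite directions in the same libraries of LNCaP. The relation was not tested, and KLF13 had only 12 to 36 counts in each of these siMED12 libraries. In siMED12 replicates 1, 2 and 3 the level of KLF4 was 60.1, 14.7 and 19.5 CPM and that of KLF13 16.8, 48.0 and 25.3 CPM, so that replicate 1 was close to the controls for both and replicate 2 farthest from them. SP2 did not follow this order, with 18.2, 20.02 and 25.3 CPM in the same libraries.

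The expression of some other family genes also differed between the control spheroids. Of the 6 tested, 1 passed as higher and 1 as lower in 22Rv1 than in LNCaP. In PC3, 1 was higher and 3 lower than in LNCaP, and 1 higher and 1 lower than in 22Rv1. Of all genes tested, 43.2%, 54.7% and 54.9% passed in these comparisons in either direction. KLF15, which acts in metabolic tissues, averaged 25.6 CPM in LNCaP and 29.1 CPM in 22Rv1 but 1.13 CPM in PC3 (edgeR adjusted p = 7.17e-07 against LNCaP), and SP8, a factor of limb and brain development, averaged 16.7 CPM in PC3, 0.855 in 22Rv1 and 0.353 in LNCaP. The SP8 levels outside PC3 rest on 2 counts in all in 22Rv1 and 1 in LNCaP. Both genes were chosen here after their values were seen.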
